A study of Homo sapiens with 18 samples.

Results

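The BCL2 family was followed in K562 cells at the level of RNA, through 10 genes: BCL2L1 and MCL1, which hold cells alive, BAX and BAK1, which open the mitochondrial outer membrane, and the BH3-only genes BID, BBC3, PMAIP1, BCL2L11, BAD and BIK. The members were taken by symbol from the table of counts per gene, and all 10 had a row among the 27781 genes. Of these, 9 passed the filter on low counts and were tested, and BIK did not. K562 is a line from a human chronic myeloid leukemia, driven by the BCR-ABL1 fusion kinase and without functional p53. The knockdown cells had been transfected with antisense gapmers, short oligonucleotides that recruit RNase H, directed at the junction of the circular RNA circPCMTD1. The scrambled cells had received gapmers of scrambled sequence, and both groups were unselected K562 cultures harvested 48 hours later. The sample descriptions write siRNA where the protocol and treatment labels write gapmers, and gapmer is used here. There were 3 biological replicates per group, each sequenced as 3 technical libraries (18 in total), which were summed here by replicate. An action of a gapmer on other RNAs and the loss of its target cannot be told apart in this design.

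The family decides whether the mitochondrial outer membrane stays closed. In a living cell BCL-XL, the product of BCL2L1, and MCL1 hold BAX, BAK and the BH3-only proteins in check, and stress signals raise or activate BH3-only proteins until BAX and BAK form pores that let cytochrome c out to the caspases. In BCR-ABL1 cells the kinase is known to keep BCL-XL high through STAT5 and BIM, the product of BCL2L11, low. BBC3 (PUMA), PMAIP1 (NOXA) and BAX are also known p53 targets, and the first 2 of these are induced by stress factors such as ATF4 and CHOP as well.

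In knockdown cells 5 of the 6 BH3-only members passed the test, the sixth (BIK) being too low to test. Of the BH3-only genes outside the members, BMF was tested and not called (log2 fold change 0.19, adjusted p = 0.178 in edgeR). HRK was too low to test. BBC3, PMAIP1 and BCL2L11 fell by 17.3%, 13.5% and 10.1%, while BID and BAD rose by 13.4% and 17.5%. These calls are edgeR's. In DESeq2 PMAIP1 was not called (adjusted p = 0.069), and 2 members rose and 2 fell. Among BCL2L1, MCL1, BAX and BAK1, 0 of 4 were called by edgeR and 0 by DESeq2, and 1 of them, BCL2L1, had an unadjusted p below 0.05 in edgeR. That count rests on the first number of each title as the replicate, which the labels do not specify. Summed by the second number, BCL2L1 (adjusted p = 0.00494), MCL1 (0.0147) and BAX (0.0369) were called in edgeR as well, and GC correction called BCL2L1 and MCL1. A difference between BH3-only and other members was not tested. In all, 2 members rose and 3 fell, 5 of the 9 tested, with 0.05 as the threshold on the adjusted p of edgeR's quasi-likelihood fit. Of all 15678 genes tested 18.6% were called, 11.1% raised and 7.49% lowered. Raised genes made up 59.8% of those calls, and 47.0% of calls with a correction for GC content. The median log2 fold change was -0.05 over the 9 members and 0.002 over all genes tested.

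The start regions of the 5 members that passed the test are printed here because these genes moved in opposite directions. Each window runs from 250 bases before to 50 bases after a RefSeq transcript start (GRCh38.p14), 5′ to 3′ on the gene's strand, and the first window listed for the gene was taken. The windows lie at chr19:47232618-47232917 on the minus strand for BBC3, chr18:59899746-59900045 on the plus strand for PMAIP1 and chr2:111120664-111120963 on the plus strand for BCL2L11. Those of BID and BAD lie at chr22:17774420-17774719 and chr11:64284655-64284954, both on the minus strand. Capitals mark matches on either strand to the 6 motifs named after the sequences.
BBC3: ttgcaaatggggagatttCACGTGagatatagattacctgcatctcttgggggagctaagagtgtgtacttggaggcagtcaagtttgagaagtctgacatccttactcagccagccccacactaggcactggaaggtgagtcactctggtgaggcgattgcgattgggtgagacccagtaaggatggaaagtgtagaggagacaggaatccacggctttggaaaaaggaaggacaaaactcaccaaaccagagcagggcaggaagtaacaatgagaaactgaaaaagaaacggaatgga
PMAIP1: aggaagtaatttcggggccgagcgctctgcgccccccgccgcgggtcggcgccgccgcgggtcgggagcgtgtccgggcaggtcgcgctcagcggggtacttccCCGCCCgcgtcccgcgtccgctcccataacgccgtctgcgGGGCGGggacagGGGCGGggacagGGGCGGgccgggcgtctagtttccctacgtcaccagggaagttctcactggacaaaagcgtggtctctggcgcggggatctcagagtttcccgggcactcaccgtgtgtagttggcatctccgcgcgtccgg
BCL2L11: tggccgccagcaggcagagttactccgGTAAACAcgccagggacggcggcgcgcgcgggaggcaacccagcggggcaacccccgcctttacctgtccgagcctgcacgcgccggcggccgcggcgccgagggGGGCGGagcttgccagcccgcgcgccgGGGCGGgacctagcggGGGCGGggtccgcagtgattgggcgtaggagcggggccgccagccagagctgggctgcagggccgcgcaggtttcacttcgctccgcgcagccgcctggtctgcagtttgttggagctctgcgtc
BID: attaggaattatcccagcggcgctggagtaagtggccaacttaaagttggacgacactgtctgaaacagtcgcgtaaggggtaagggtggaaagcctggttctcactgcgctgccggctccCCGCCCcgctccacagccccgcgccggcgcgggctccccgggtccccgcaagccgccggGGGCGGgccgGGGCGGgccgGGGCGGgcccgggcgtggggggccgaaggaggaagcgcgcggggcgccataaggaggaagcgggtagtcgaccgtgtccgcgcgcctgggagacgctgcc
BAD: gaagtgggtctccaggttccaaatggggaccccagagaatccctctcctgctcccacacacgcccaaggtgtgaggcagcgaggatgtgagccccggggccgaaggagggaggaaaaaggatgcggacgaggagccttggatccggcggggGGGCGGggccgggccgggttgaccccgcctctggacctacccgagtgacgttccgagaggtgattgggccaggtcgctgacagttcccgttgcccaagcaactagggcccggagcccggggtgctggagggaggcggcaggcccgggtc

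The motifs searched were the cAMP response element TGACGTCA, the composite element of CHOP and ATF4 TGATGNAAT, the FOXO element TGTTTAC, the STAT element TTCNNNGAA, the E-box CACGTG and the GC box GGGCGG, and none of their matches shown overlapped. The FOXO element was found once, in BCL2L11, and 3.42% of the 35116 windows in the RefSeq table hold it. The BBC3 window held 1 E-box, which 7.26% of all windows hold, and the window of BAX, which was not called, held 4. GC boxes, which 45.0% of windows hold, numbered 4 in PMAIP1, 3 in BCL2L11, 4 in BID, 1 in BAD and 0 in BBC3. The letters of the cAMP response, CHOP and ATF4, and STAT elements matched in 0 of the 5 windows, and 1.85%, 0.991% and 7.66% of all windows hold them. The BBC3 window had 48.0% G and C, against 68.3% to 74.7% in the other 4 windows. The RefSeq table lists 5 windows for BID and 2 for BAD, and the matches given for them are from the first window only. A window of this size holds only part of a promoter, and a match is not a bound site.

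Facts of the whole series bear on these values in the following way. Single libraries held 19118533 to 29432699 counts and summed samples 63851576 to 76087774. PCMTD1, the host gene of the circular RNA, was at 12.6, 11.7 and 12.5 CPM (counts scaled to a library of 1000000) in the knockdown samples, against 20.0, 19.8 and 21.9 CPM in the scrambled samples. Its log2 fold change was -0.74 (SE 0.052, adjusted p = 7.57e-10 by edgeR's quasi-likelihood test), and an exact two-sided permutation test gave p = 0.1, the smallest that 3 against 3 samples allow. These counts add linear and circular RNA. Knockdown libraries 3_2 and 3_3 deviated most with GC content among the libraries, with the genes of highest GC content at a median of -0.145 and -0.173 (log2) relative to the other knockdown libraries. Of the members that passed the test BBC3 and BAD are rich in GC (69.7% and 66.3% of the longest transcript) and PMAIP1 is poor in it (37.2%). The labels call the cells lymphoblasts, and globin and erythroid markers were present, with 9 markers summing to 13800 to 14600 CPM in knockdown samples and 13200 to 13400 CPM in scrambled samples. All 4 B lymphoid markers had a mean under 1 CPM, with MS4A1 at 0, and summed to 0.942 to 1.07 CPM in knockdown samples, against 0.463 to 0.595 CPM in scrambled samples. The 3 T lymphoid markers summed to 6.45 to 6.58 CPM in knockdown samples, against 4.42 to 4.93 CPM in scrambled samples, and 2 of them lay under 1 CPM. The 3 megakaryocyte markers summed to 8.69 to 9.34 CPM in knockdown samples, against 4.43 to 4.58 CPM in scrambled samples, and the 3 monocyte markers to 46.0 to 47.0 CPM in knockdown samples, against 36.3 to 38.2 CPM in scrambled samples, again with 2 under 1 CPM in each. The 4 fibroblast and epithelial markers summed to 166 to 172 CPM in knockdown samples and 167 to 172 CPM in scrambled samples. The part of these markers in the changes of the BCL2 family was not tested. In bulk RNA, fewer cells of a type and less RNA per cell cannot be told apart.

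Per length, BCL2L1 and MCL1 stood far above the other tested members in both groups. Relatives outside the members were not compared per length. On the TPM scale, where counts are divided by the union of annotated exons and scaled to a sum of 1000000, BCL2L1 averaged 126 ± 0.804 TPM in knockdown cells and 128 ± 1.99 TPM in scrambled cells (SD, n = 3 each). MCL1 followed at 117 ± 4.68 TPM in knockdown cells and 118 ± 3.43 TPM in scrambled cells. BAK1 was at 35.9 ± 1.61 TPM and BAX at 34.6 ± 1.24 TPM in knockdown cells, against 35.4 ± 0.472 and 32.0 ± 0.413 TPM in scrambled cells.

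BID and BCL2L11 were the highest of the tested BH3-only members. BID had 18.8 ± 0.897 TPM in knockdown and 16.2 ± 1.08 TPM in scrambled cells, and BCL2L11 had 17.5 ± 1.05 TPM in knockdown and 19.0 ± 0.81 TPM in scrambled cells. Their order depends on the length used, since with the longest transcript BID lay above BCL2L11 in knockdown cells (27.8 and 18.5 TPM) and in scrambled cells (24.0 and 20.2 TPM). BAD had 11.7 ± 0.159 TPM in knockdown and 9.78 ± 0.333 TPM in scrambled cells, and BBC3 had 7.88 ± 0.623 TPM in knockdown and 9.32 ± 0.348 TPM in scrambled cells. PMAIP1 was lowest, with 6.30 ± 0.24 TPM in knockdown and 7.11 ± 0.209 TPM in scrambled cells. The replicate values of BAK1 and BAX, of BID and BCL2L11, and of BAD and BBC3 overlapped in at least 1 group, so these neighbours in the order are not separated beyond their spread. Every other step in the order was larger than the range of the replicates.

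**Figure D1:**
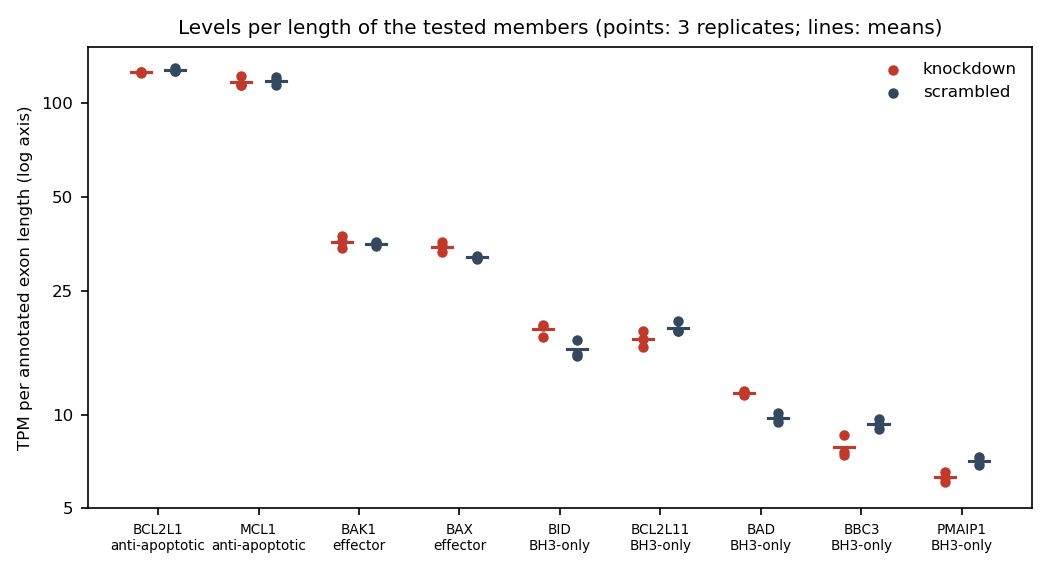
Levels of the 9 tested members in TPM per annotated exon length, on a log axis, with genes from highest to lowest in knockdown cells, points for the 3 summed replicates and short lines for their means. BCL2L1 and MCL1 lie between 114 and 130 TPM in both groups and the BH3-only members at 20.0 TPM or less.

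The share of the roles among the 9 tested members differed little between groups. The anti-apoptotic members BCL2L1 and MCL1 made up 64.6% of the members' summed TPM in knockdown cells and 65.6% in scrambled cells. Other relatives were not counted in these sums. The summed TPM of the anti-apoptotic genes was 241, 240 and 247 in knockdown samples, against 241, 247 and 251 in scrambled samples. Effectors summed to 72.3, 71.7 and 67.5 TPM in knockdown samples, against 67.5, 67.3 and 67.4 TPM in scrambled samples. The 5 tested BH3-only members summed to 60.9, 62.4 and 63.3 TPM in knockdown samples, against 60.1, 60.6 and 63.5 TPM in scrambled samples. The sums of the BH3-only genes overlapped between groups, while 5 of these genes changed one by one. Anti-apoptotic TPM per TPM of effectors and BH3-only genes was 1.81, 1.79 and 1.89 in knockdown samples and 1.89, 1.93 and 1.92 in scrambled samples. The groups met at 1.89. With the longest transcript as length the ratio was 1.47, 1.44 and 1.53 in knockdown samples, against 1.55, 1.57 and 1.57 in scrambled samples, which did not meet, and neither ratio carries a test.

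BCL2L1, on chromosome 20 (31664452 to 31723989, minus strand, GRCh38), encodes BCL-XL and, through another splice site, the shorter pro-apoptotic BCL-XS, and counts per gene do not separate them. It had 175, 175 and 166 CPM in knockdown samples, against 180, 177 and 181 CPM in scrambled samples. All 3 knockdown values lay below the scrambled ones, with knockdown replicate 3 the lowest. The log2 fold change was -0.06 (95% interval -0.119 to -0.001) and edgeR gave an adjusted p of 0.152, so BCL2L1 was not called, and with GC correction it was called at adjusted p = 0.00109. Exons of the antisense gene ABALON cover 43.0% of its annotated exon bases on the other strand, and that gene was not analysed here.

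MCL1, a short-lived protein that guards against BAK in particular, is encoded on chromosome 1 (150574551 to 150579738, minus strand). It had 209, 209 and 215 CPM in knockdown samples, against 215, 220 and 221 CPM in scrambled samples. The groups met at the top knockdown and the lowest scrambled replicate, near 215 CPM. The log2 fold change was -0.05 (95% interval -0.105 to 0.005, adjusted p = 0.211 by edgeR's quasi-likelihood test). MCL1 was called as lowered without knockdown libraries 3_2 and 3_3 (adjusted p = 0.00297) and with GC correction (adjusted p = 0.0224), both in edgeR. In the reported fit the 95% intervals of BCL2L1 and MCL1 reached down to -0.119 and -0.105 on the log2 scale. These bounds depend on the samples used. Without 1 replicate the SE of BCL2L1 ran from 0.0179 (without knockdown replicate 3) to 0.0363 (without scrambled replicate 2).

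The effector BAX, on chromosome 19 (48954815 to 48961798, plus strand), encodes a protein that moves from cytosol to mitochondria and forms pores there. Its values were 37.8, 38.8 and 34.6 CPM in knockdown samples and 35.2, 35.3 and 34.5 CPM in scrambled samples. In CPM knockdown replicates 1 and 2 lay above every scrambled sample and replicate 3 lay within them. On the TPM scale the groups did not overlap, at 34.9, 35.7 and 33.3 TPM in knockdown samples, against 31.6, 32.4 and 31.8 TPM in scrambled samples. The log2 fold change was 0.08 (95% interval -0.002 to 0.168, adjusted p = 0.171 by edgeR's quasi-likelihood test). Libraries 3_2 and 3_3, at 32.8 and 33.4 CPM, were the 2 lowest of the 9 knockdown libraries, and without them BAX was called as raised with a log2 fold change of 0.12 (adjusted p = 0.00124 in edgeR). It was not called with GC correction.

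BAK1, whose protein sits in the mitochondrial outer membrane, lies on chromosome 6 (33572547 to 33580293, minus strand). It had 34.7, 33.4 and 30.5 CPM in knockdown samples, against 34.1, 32.6 and 32.9 CPM in scrambled samples, and the knockdown values reached both above and below the scrambled ones. The log2 fold change was -0.01 (95% interval -0.105 to 0.076) and the adjusted p was 0.865 in edgeR. Its sign turned without knockdown replicate 3 (0.04), without scrambled replicate 1 (0.005) and without libraries 3_2 and 3_3 (0.01), and BAK1 was called under 0 of the 20 other settings. The annotation holds the gene copies BAK1P1 and BAK1P2, with which BAK1 may share reads, and these were not used here.

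**Figure D2:**
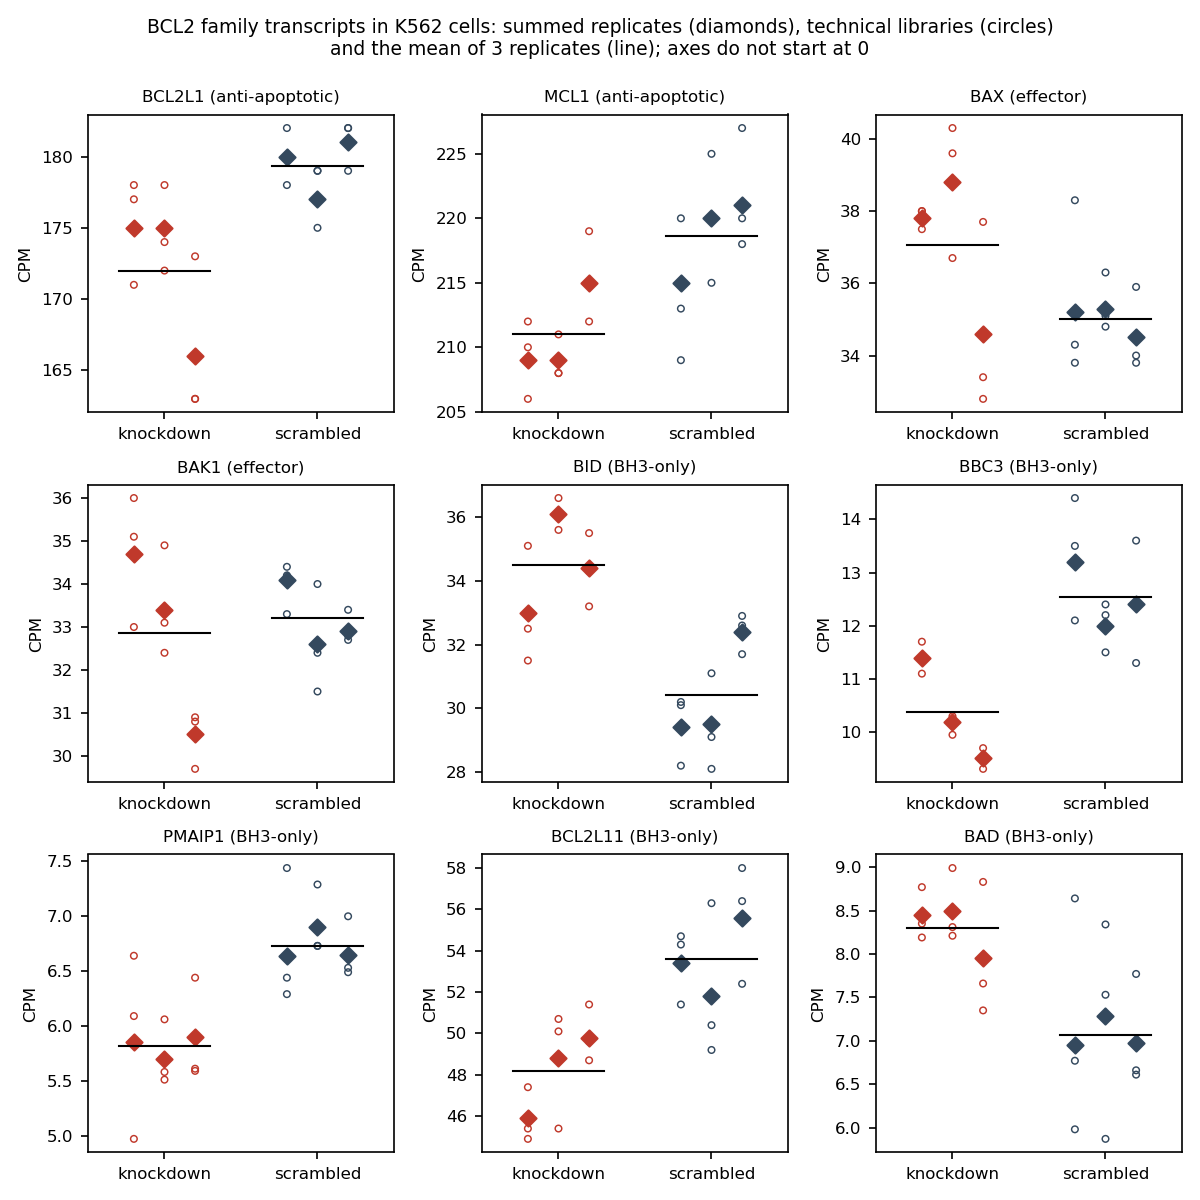
Levels in CPM of the 9 tested members in knockdown and scrambled cells, with diamonds for the 3 summed replicates, circles for their technical libraries and lines for group means; axes do not start at 0. Summed replicates of BBC3, PMAIP1, BCL2L11 and BCL2L1 lie below all scrambled replicates, and those of BID and BAD lie above them.

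BBC3 fell in knockdown cells. The gene, on chromosome 19 (47220822 to 47232766, minus strand), encodes PUMA, a BH3-only protein that binds all anti-apoptotic relatives. It had 11.4, 10.2 and 9.51 CPM in knockdown samples, against 13.2, 12.0 and 12.4 CPM in scrambled samples. The groups did not overlap, and 7 of 9 knockdown libraries lay below all 9 scrambled libraries. BBC3 changed by -0.28 on the log2 scale (SE 0.0634, 95% interval -0.406 to -0.143, adjusted p = 0.00384 by edgeR's quasi-likelihood test). This rested on 185 to 310 counts per knockdown library and 256 to 369 per scrambled library, for which counting error alone is 6.60% and 5.79%. Replicate means differed by an SD of 9.29% in knockdown and 5.42% in scrambled cells, and technical libraries of a replicate by 2.08% and 7.74%. BBC3 was called without any 1 of the 6 replicates and with DESeq2, but with the first technical library of each replicate only it was at -0.17 and not called (adjusted p = 0.224 in edgeR).

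PMAIP1, on chromosome 18 (59899948 to 59904306, plus strand), encodes NOXA, which binds MCL1 and promotes its breakdown. Its values were 5.85, 5.70 and 5.90 CPM in knockdown samples and 6.64, 6.90 and 6.65 CPM in scrambled samples, with no overlap. PMAIP1 changed by -0.21 on the log2 scale (SE 0.0653, 95% interval -0.345 to -0.075, adjusted p = 0.0271 by edgeR's quasi-likelihood test). PMAIP1 was the lowest of the tested members, with 111 to 156 counts per knockdown library and 142 to 184 per scrambled library. Counting error alone is 8.82% per knockdown library and 7.92% per scrambled library. Technical libraries of a replicate differed by an SD of 10.2% in knockdown and 6.46% in scrambled cells. Replicate means differed by only 1.74% and 1.89%, so their close agreement understates the counting error. Its call ended with DESeq2 (adjusted p = 0.069) and on leaving out any replicate but knockdown replicate 3, where edgeR's adjusted p ran from 0.0559 to 0.113 and the log2 fold change from -0.22 to -0.19.

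BCL2L11, on chromosome 2 (111119378 to 111168447, plus strand), encodes BIM, the BH3-only protein that BCR-ABL1 signalling is known to restrain. It had 45.9, 48.8 and 49.8 CPM in knockdown samples, against 53.4, 51.8 and 55.6 CPM in scrambled samples. In CPM all knockdown samples lay below the scrambled ones, and among single libraries 5 of 9 knockdown libraries lay below all scrambled libraries. On the TPM scale the groups overlapped, at 16.5, 17.5 and 18.6 TPM in knockdown samples, against 18.6, 18.5 and 20.0 TPM in scrambled samples. BCL2L11 changed by -0.15 on the log2 scale (SE 0.0377, 95% interval -0.232 to -0.076, adjusted p = 0.00599 by edgeR's quasi-likelihood test). Without scrambled replicate 3 it was -0.13 and the adjusted p 0.0571 in the same test. Exons of MIR4435-2HG on the other strand cover 10.9% of BCL2L11 exon bases. That gene averaged 57.3 ± 1.68 CPM in knockdown cells and 57.9 ± 0.754 CPM in scrambled cells (SD, n = 3 each, and adjusted p = 0.818 in edgeR). Where the counting took no account of strand, reads on the shared bases may have gone to either gene, to both or to neither.

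BID rose. The gene, on chromosome 22 (17734138 to 17774770, minus strand), encodes the BH3-only protein that caspase-8 cuts, so that death receptors can act on mitochondria. It had 33.0, 36.1 and 34.4 CPM in knockdown samples, against 29.4, 29.5 and 32.4 CPM in scrambled samples. The lowest knockdown and the highest scrambled sample were 33.0 and 32.4 CPM, and 7 of 9 knockdown libraries lay above all scrambled libraries. BID changed by 0.18 on the log2 scale (SE 0.044, 95% interval 0.09 to 0.272, adjusted p = 0.00556 by edgeR's quasi-likelihood test). Without scrambled replicate 1 it was 0.16 with an adjusted p of 0.0559 in the same test.

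BAD, on chromosome 11 (64269830 to 64284704, minus strand), encodes a BH3-only protein that survival kinases keep inactive by phosphorylation. It had 8.45, 8.50 and 7.95 CPM in knockdown samples, against 6.95, 7.29 and 6.97 CPM in scrambled samples, and the groups did not overlap. Its log2 fold change of 0.23 (SE 0.0615, 95% interval 0.105 to 0.36) had an adjusted p of 0.0103 in edgeR. Single scrambled libraries spread widely, from 5.87 to 8.64 CPM, with technical libraries of a replicate differing by an SD of 15.9% where counting error is 7.73%. Only 3 of 9 knockdown libraries lay above all scrambled libraries, the highest of which were 1_3 at 8.64 CPM and 2_3 at 8.34 CPM. Without scrambled replicate 1 the call ended (adjusted p = 0.0571 in edgeR) with the log2 fold change at 0.22. The gene GPR137 covers 23.7% of BAD exon bases from the other strand, and averaged 22.4 ± 1.33 CPM in knockdown cells and 22.0 ± 0.252 CPM in scrambled cells (SD, n = 3 each; adjusted p = 0.732 in edgeR).

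BIK, on chromosome 22 (43110748 to 43129712, plus strand), encodes a BH3-only protein of the endoplasmic reticulum. It had 3, 0 and 2 counts in knockdown samples and 1, 4 and 2 counts in scrambled samples, with no count in 7 of 9 knockdown and 5 of 9 scrambled libraries. The group sums were 5 counts of 198059018 in knockdown cells and 7 of 214304427 in scrambled cells, so no fold change is given.

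**Figure D3:**
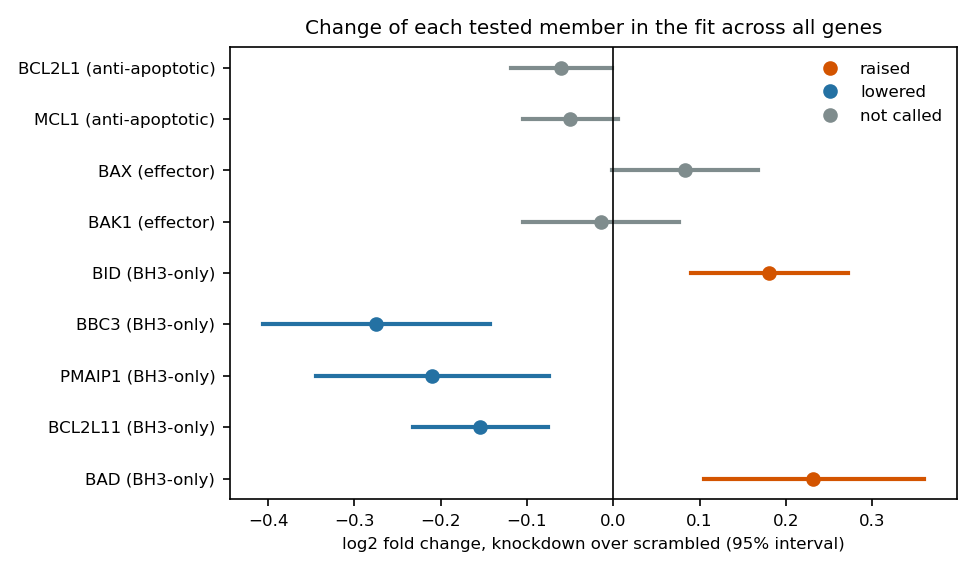
Log2 fold change, knockdown over scrambled, of each tested member with its 95% interval from the fit across all genes (counting and replicate spread over 3 against 3 samples). BBC3, PMAIP1 and BCL2L11 lie below 0, BID and BAD above 0, and the intervals of MCL1, BAX and BAK1 include 0.

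Members were also compared as ratios of counts within a sample, where the library total cancels. Ratios of other pairs were computed as well and are not given here. For every 100 BBC3 counts there were 289, 356 and 361 BID counts in knockdown samples, against 222, 245 and 261 in scrambled samples. This pair was chosen after its values were seen, for its opposite changes, and is given without a test. BAX counts per 100 BCL2L1 counts were 21.6, 22.2 and 20.8 in knockdown samples, against 19.5, 19.9 and 19.1 in scrambled samples, with no overlap. BCL2L11 counts per 100 BCL2L1 counts were 26.2, 27.9 and 29.9 in knockdown samples, against 29.6, 29.2 and 30.8 in scrambled samples, which overlapped. Counts in such ratios are not corrected for length, so only their difference between groups can be read.

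In CPM the summed values of the groups did not overlap for 6 of the 9 tested members, 2 above and 4 below the scrambled samples. This held for 34.6% of all genes tested. In TPM BCL2L11 overlapped and BAX did not. The technical libraries are the parts of these sums, so their values lend the calls no separate weight. All 9 knockdown libraries lay below the scrambled median for BBC3, PMAIP1 and BCL2L11, and all 9 lay above it for BID and BAD. All 9 also lay below it for BCL2L1 and MCL1. For BAX 7 of 9 lay above the median and for BAK1 6 of 9 below it. With the first number taken as the replicate, technical libraries are repeats of the same samples and add no replicates.

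The rest of the apoptosis pathway was examined through 6 lists of 63 genes, of which 58 were tested, 1 rose and 9 fell. That is 1.72% raised and 15.5% lowered, where all genes tested gave 11.1% and 7.49%. In either direction 17.2% of the list genes were called, against 18.6% of all genes tested. The split depends on the setting, with 6 raised and 7 lowered when scaled by library totals only, 6 and 14 with GC correction, 8 and 15 when summed by the second number, and 7 and 11 at an unadjusted p below 0.05 in edgeR. Among other BCL2 relatives, 0 of 7 tested genes were called by edgeR or DESeq2, 1 raised and 1 lowered had an unadjusted p below 0.05 in edgeR, and the median log2 fold change was 0.005. BCL2L13, a mitochondrial relative with a role in mitophagy, came closest at -0.07 (adjusted p = 0.0866 in edgeR). BCL2 itself averaged 1.93 ± 0.0881 CPM in knockdown cells and 1.68 ± 0.218 CPM in scrambled cells (SD, n = 3 each; adjusted p = 0.311 in edgeR). BCL2A1, BCL2L10, BCL2L14 and HRK had at most 10 counts in any library and were not tested.

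Of 16 genes of the apoptosome, caspases and related proteins, VDAC channels among them, 3 fell and 0 rose in edgeR and in DESeq2. That is 18.8% in edgeR, where 7.49% of all genes tested fell and 18.6% were called in either direction. In edgeR 1 gene was raised at an unadjusted p below 0.05, and the list median was -0.03. HTRA2, a protease released from mitochondria that removes inhibitors of caspases, was at 64.1, 64.8 and 60.3 CPM in knockdown samples, against 68.6, 67.4 and 68.9 CPM in scrambled samples (log2 fold change -0.12, adjusted p = 0.0204 in edgeR). VDAC2, the outer membrane channel that BAK depends on, had 298, 294 and 305 CPM in knockdown samples, against 317, 321 and 312 CPM in scrambled samples (-0.08, adjusted p = 0.0264). AIFM1, a flavoprotein of the mitochondrial intermembrane space, had 58.1, 55.2 and 56.3 CPM in knockdown samples, against 62.1, 59.6 and 60.3 CPM in scrambled samples (-0.10, adjusted p = 0.0361). All 3 were non-overlapping between groups, and in edgeR their list had 0 lowered without scrambled replicate 1, 2 or 3, 1 lowered without knockdown replicate 2, 5 lowered without knockdown replicate 3 and 1 lowered when scaled by library totals only.

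Among 5 inhibitor of apoptosis genes 1 rose (20.0%, against 11.1% of all genes tested), BIRC3, which encodes a ubiquitin ligase of TNF receptor signalling. It had 0.40, 0.687 and 0.818 CPM in knockdown samples, against 0.159, 0.397 and 0.387 CPM in scrambled samples, a log2 fold change of 1.02 with an SE of 0.305 (adjusted p = 0.022 in edgeR) at a level near the count filter. The groups lie within 0.01 CPM of each other at their nearest values, and the call ended without knockdown replicate 2 or 3 or scrambled replicate 1. Of the death receptor arm, which leads to the cutting of BID, 1 of 10 genes fell (10.0%, against 7.49% of all genes tested). TNFRSF10B, a receptor of the death ligand TRAIL, had 31.7, 32.4 and 32.5 CPM in knockdown samples, against 40.3, 37.8 and 38.0 CPM in scrambled samples (log2 fold change -0.27, adjusted p = 3.34e-05 in edgeR). CASP8, whose product cuts BID, averaged 22.3 ± 0.858 CPM in knockdown cells and 22.9 ± 0.866 CPM in scrambled cells (SD, n = 3 each; adjusted p = 0.586 in edgeR).

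Factors known to act on genes of the family were lowered in 4 of 11 cases (36.4%, against 7.49% of all genes tested). The list median was -0.05, and 0 were raised in edgeR or DESeq2 (3 at an unadjusted p below 0.05 in edgeR). With library totals only, libraries entered singly, sums by the second number or GC correction, edgeR called 3 as raised. ATF4, the transcription factor of the integrated stress response, had 255, 258 and 249 CPM in knockdown samples, against 316, 313 and 310 CPM in scrambled samples (log2 fold change -0.30). DDIT3, which encodes CHOP, had 34.9, 33.8 and 33.8 CPM in knockdown samples, against 44.7, 42.3 and 40.4 CPM in scrambled samples (-0.31). ATF3 had 13.4, 13.9 and 13.7 CPM in knockdown samples, against 18.4, 19.1 and 18.7 CPM in scrambled samples (-0.46). For these 3, edgeR's adjusted p was at most 7.55e-06. The fourth was FOXO3, a factor known to induce BCL2L11 and BBC3, with a log2 fold change of -0.15 (adjusted p = 0.00199 in edgeR). STAT5A, STAT5B and GATA1, which act on BCL2L1, had log2 fold changes of 0.08, -0.05 and 0.09 and were not called, with adjusted p of 0.0514, 0.233 and 0.0547 in edgeR. These falls and those of BBC3, PMAIP1 and BCL2L11 come from the same 6 samples, and a link between them was not tested.

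Of 9 tested genes for the turnover of BCL2 family proteins, 1 fell and 0 rose in edgeR and in DESeq2. In edgeR 0 were raised at an unadjusted p below 0.05. The lowered share was 11.1%, where all genes tested gave 7.49%. FBXO10, a ligase subunit reported to act on BCL2, had 31.1, 30.8 and 28.6 CPM in knockdown samples, against 35.5, 36.1 and 35.5 CPM in scrambled samples (log2 fold change -0.24, adjusted p = 0.000137 in edgeR). HUWE1, FBXW7 and BTRC, ligases that act on MCL1, and the deubiquitinase gene USP9X, which protects it, had log2 fold changes between -0.05 and 0.03 and were not called. RNF183 had at most 4 counts in any library and was not tested.

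**Figure D4:**
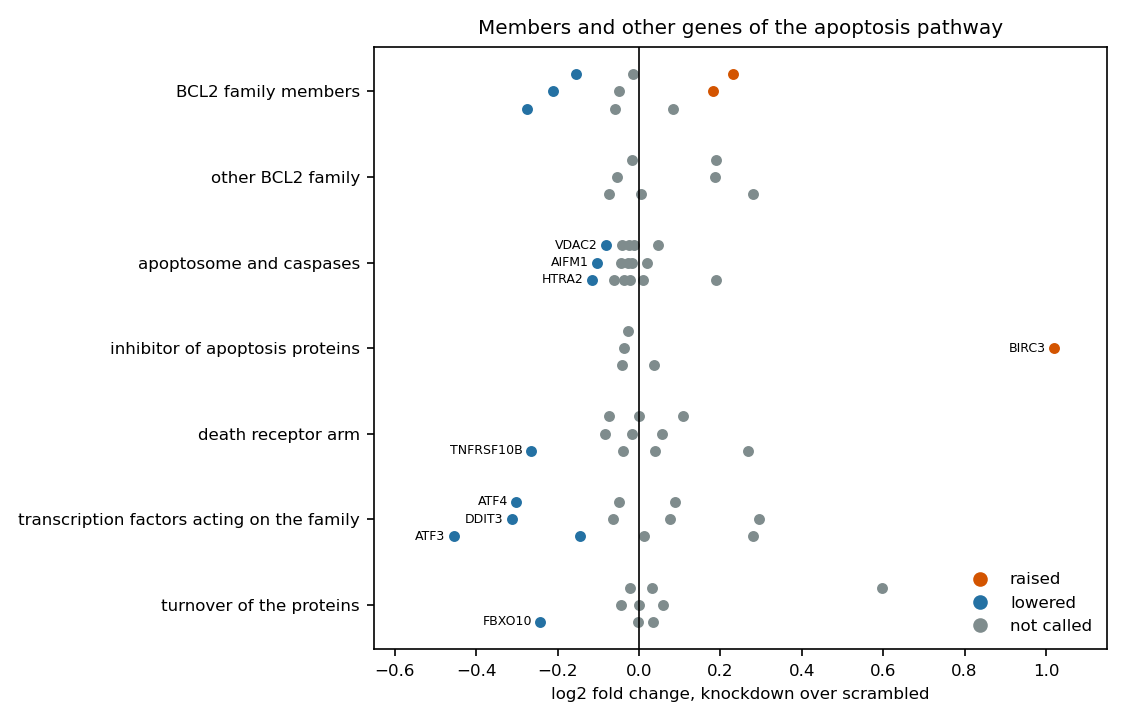
Log2 fold changes, knockdown over scrambled, of the 9 tested members and of 58 tested genes in 6 lists of the apoptosis pathway, with up to 3 called genes per list named; height within a row has no meaning. In the members' row called genes lie on both sides of 0, while 9 of the 10 called genes of the other lists lie below 0 under the reported setting; with library totals only, 6 were raised and 7 lowered.

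Library choice and scaling bore on the members as follows. The sign of each of the 9 tested members other than BAK1 was the same under all 20 other settings run. BID, BBC3 and BAD were called under 18 of the 20, BCL2L11 under 17 and PMAIP1 under 12. Without knockdown libraries 3_2 and 3_3 the log2 fold changes were -0.24 for BBC3, -0.23 for PMAIP1, -0.17 for BCL2L11, 0.19 for BID and 0.27 for BAD, and all 5 were called. With GC correction they were -0.31, -0.23, -0.15, 0.19 and 0.20 in the same order, again all called. With only the first technical library of each replicate BBC3, PMAIP1 and BCL2L11 were not called (-0.17, -0.12 and -0.11), and BAD was at 0.41. A test against a 1.2-fold change called 0 of the 9 members in edgeR, with 0 at an unadjusted p below 0.05 there, against 1.24% of all genes called.

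**Figure D5:**
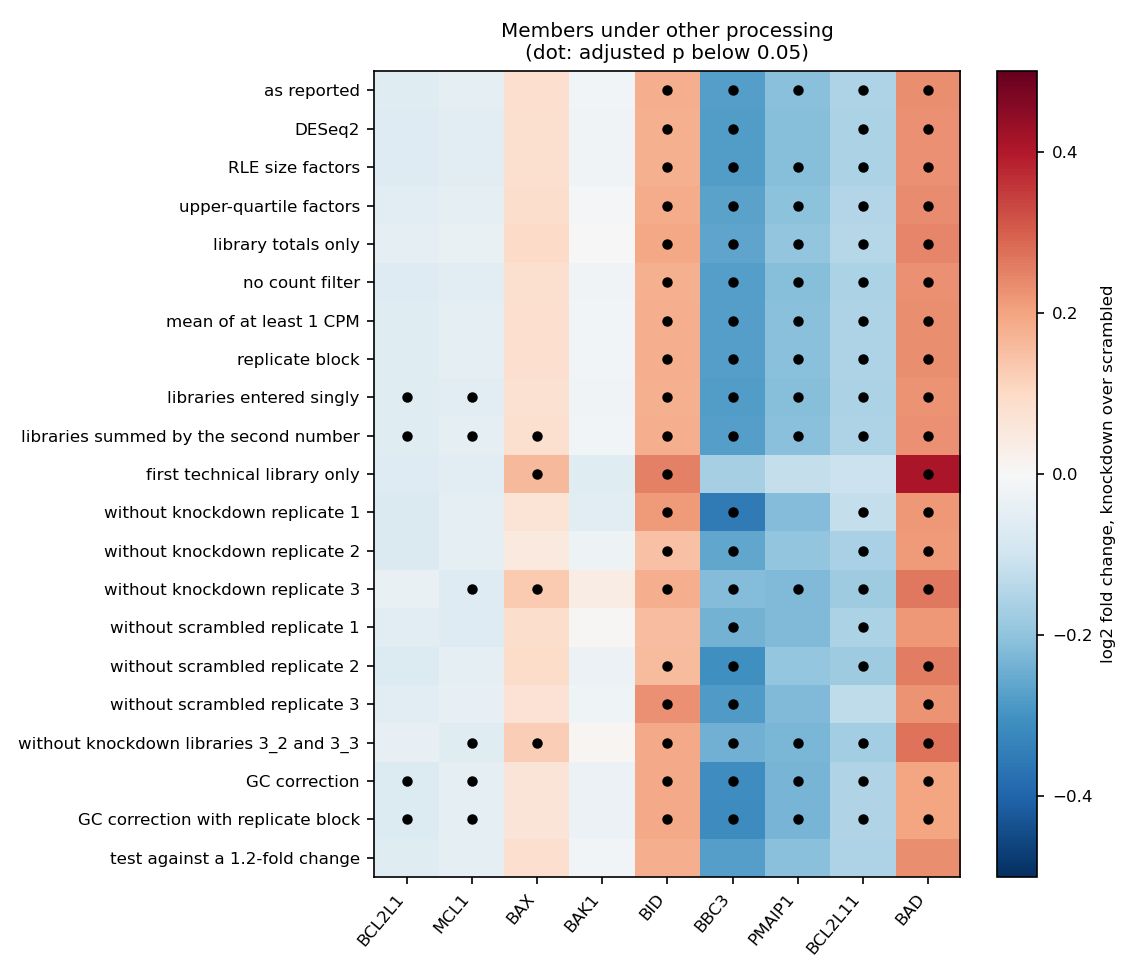
Log2 fold change of each tested member (colour, knockdown over scrambled) under the reported setting and 20 other settings, with a dot where the adjusted p is below 0.05. BBC3, PMAIP1 and BCL2L11 are blue and BID and BAD red in every row, and dots are missing for them mainly with the first technical library only, with a replicate left out and in the test against a 1.2-fold change.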

How the data were processed

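K562 RNA was sequenced in 18 libraries, with ribosomal RNA removed and a directional kit, per the labels' protocols. Trim Galore, STAR, featureCounts and the GRCh38 build are named in the submitters' processing notes; their versions, the annotation and the strand setting are not stated there. Values are raw gene counts as deposited by the authors, without normalization. Groups came from the labels, which give 3 biological replicates per group and do not say whether these were separate cultures. The first number of each title was taken as the biological replicate, as the labels do not say which number it is, so p-values measure the spread between these sums, which may be technical.

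Technical libraries were summed to 3 against 3 samples. R 4.3.3 ran edgeR 4.0.16 (TMM scaling, filterByExpr, quasi-likelihood fits with the robust option), and p-values of 15678 genes were adjusted by Benjamini-Hochberg, with a call below 0.05. CPM used TMM-scaled totals. SEs were taken from the log2 fold change and the F statistic, and intervals from the test's degrees of freedom. Intervals and floors cover these samples only. Lengths, positions and GC content (96.4% of tested genes) came from GENCODE 29, and promoter windows from RefSeq for 8 of the 9 tested members. The procedure was tested on simulated data.

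Members and lists were chosen with earlier results of these data known, those of ATF4, BBC3 and BID among them, so their counts are descriptions. Named were all members, PCMTD1 and up to 3 called genes per list (otherwise the gene with the smallest p). BCL2, BMF, CASP8, FOXO3, the STAT5 genes, GATA1, MIR4435-2HG, GPR137 and the MCL1 ligases were named outside this rule, after their values were seen. Alternatives were DESeq2 1.42.0, other scaling, filters and handling of technical libraries, a replicate block, a test against a 1.2-fold change, a GC correction (lowess, span 0.3) and the omission of single replicates. Tables and plots were made in Python 3.11.15 with pandas 2.3.3 and matplotlib 3.10.9.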

Additional observations from a re-analysis of the deposited data

Results flagged for a closer look

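Among the 9 libraries of each group, PCMTD1 in scrambled library 3_1 stood apart at 24.1 CPM, where the other 8 scrambled libraries ran from 18.6 to 21.3 CPM. The gap to the next library was 0.501 of the whole range, past the limit of 0.493 for 9 values. Of 20 sets of 9 libraries looked at, over PCMTD1 and the 9 tested members, 1 was flagged, and chance flags about 1 in 20. No library stood apart by this measure for a tested member of the BCL2 family.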

How the results depend on the processing

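Of the members, 2 raised and 3 lowered, lowered calls numbered 5 with libraries entered singly, summed by the second number, with GC correction or with GC correction and the replicate block, and 0 with the first technical library only (2 at an unadjusted p below 0.05 in edgeR). Both counts were 0 in the test against a 1.2-fold change, and without 1 replicate raised members numbered 0 to 3 (0 without scrambled replicate 1) and lowered members 1 to 4 (1 without scrambled replicate 3). BAK1 ran from -0.056 to 0.037 (log2) without 1 replicate, above 0 without knockdown replicate 3 (0.037) or scrambled replicate 1 (0.005), and was at 0.011 without knockdown libraries 3_2 and 3_3.

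Pathway genes, 1 raised and 9 lowered, had 4 raised with upper-quartile factors or no count filter, 6 with library totals only, libraries entered singly, the replicate block or GC correction, 5 with GC correction and block, 8 when summed by the second number, 7 without libraries 3_2 and 3_3, 2 with the first technical library and 0 at a mean of at least 1 CPM (5 at an unadjusted p below 0.05 in edgeR). They had 15 lowered when summed by the second number or with GC correction and block, and 14 with GC correction or without those libraries. Against a 1.2-fold change 0 were raised and 1 lowered (edgeR, unadjusted p below 0.05 for 1 and 3). Without 1 replicate they numbered 0 to 6 raised and 6 to 14 lowered.

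Of all genes, 1745 raised and 1175 lowered, lowered calls numbered 1772 with the replicate block, 2036 singly, 2389 by the second number, 2426 without libraries 3_2 and 3_3, 2617 with GC correction and 2632 with GC correction and block. Against a 1.2-fold change 157 were raised and 38 lowered. Without 1 replicate 1127 to 2482 were raised and 623 to 2280 lowered, with the lowest raised count without scrambled replicate 1, lowered counts of 628, 623 and 738 without scrambled replicate 1, 2 or 3, and the highest of both without knockdown replicate 3. The cause of these shifts was not tested. PCMTD1 was called under every setting.

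Same-numbered replicates did not deviate together (correlations 0.03, 0.011 and 0.011), so the replicate block was used only among the 20 other settings. By itself the block changed no call of a member. TPM levels moved with the length used, and with the longest transcript BAX (54.8 TPM in knockdown) stood above BAK1 (29.8 TPM) and BID above BCL2L11 in both groups (24.0 and 20.2 TPM in scrambled). Depth limits BIK, where 3 counts are 0.0151 CPM in knockdown and 0.014 CPM in scrambled cells.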
